A study of Capsicum chinense and Capsicum frutescens with 8 samples.

Results

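miR393 is a plant microRNA family, described here through every entry of the conserved miRNA sheets that carries exactly this miR number, over 4 organs of 2 cultivated peppers. The number alone chose the entries, while the family was picked with its reads by library and by arm already known, so its levels, ratios and arm balance are a description, and no difference between libraries was tested. There were 10 entry names of miR393 among 2312 conserved entry names, and together they held 8951 reads in 38 listings over the 8 libraries. All 10 are accounted for below. The names miR3932a, miR3933 and miR4393b, with 1 read each, carry other numbers and were left out.

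Small RNAs were read in fruit, stem, flower and leaf of C. frutescens (Accession 4) and of C. chinense (Bhut jolokia), with 1 genotype per species, chosen for contrasting fruit characters. Plants were grown in a glass house, and the labels name no treatment. Fruit libraries joined stages from 5 to 60 days after flower opening, flower libraries joined buds of different size and age, and leaves were fully expanded. RNA of 3 biological replicates was pooled for each library, so every species and organ is 1 library and no spread between plants can be given. Intervals are 95% counting intervals (exact) and cover counting error only. The sheets list miRNAs only, so the organ labels could not be checked against organ markers.

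A miRNA precursor folds into a hairpin that gives a 5p and a 3p strand, and often only the 5p or the 3p strand is kept by the silencing complex. The 5p strand of miR393 is known to cleave the messages of TIR1 and AFB proteins, the F-box receptors that sense auxin, and so lowers the response to that hormone. In Arabidopsis it is induced when bacterial flagellin is sensed, and the 3p strand of the Arabidopsis MIR393B hairpin was shown to act on a Golgi SNARE gene in antibacterial defence. Names such as gma (soybean), stu (potato), ata (goat grass Aegilops tauschii) and ath (Arabidopsis) give the species of the database entry a read was assigned to, and not a pepper locus.

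The sequences below carry the arm split. They are printed 5′ to 3′ as in the deposited sheets, and capitals mark bases 2 to 8, called the seed here.
gma-miR393c-3p, C. chinense fruit: aUCAUGCUaucccuuuggacu
stu-miR393-3p, C. chinense fruit: aUCAUGCGaucucuucggaau
ath-miR393a-5p, fruit of both species: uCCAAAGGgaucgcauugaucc
ata-miR393-5p, C. chinense fruit: uCCAAAGGgaucgcauugauuuu

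The 3p entries with soybean and potato names differed at 4 of 21 positions, U8G, C12U, U16C and C20A, counted from the 5′ end with the soybean-named base first. Their seeds, UCAUGCU and UCAUGCG, thus differ in the last base. The seed CCAAAGG stood at bases 2 to 8 in every listing of both 5p entry names and of the entries ghr-miR393 and gma-miR393i, which name no arm. The 5p names differed at their 3′ end.

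Some printed forms were longer or lay on the other strand, and they are shown because most reads of C. frutescens fruit stand under them. Capitals mark the same seed, or its reverse complement.
gma-miR393c-3p, C. frutescens fruit: auugaUCAUGCUaucccuuuggacu
stu-miR393-3p, C. frutescens fruit: agaauuccgaagagauCGCAUGAu
stu-miR393-3p, C. chinense flower: ccgaagagauCGCAUGAuccuaugagaac

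In C. frutescens fruit the soybean-named 3p entry was printed with 25 nt, so that its seed bases start at position 6, against 21 nt and position 2 in 6 of the other libraries. The potato-named entry was printed there as the reverse complement of its 21 nt form, with all 21 bases identical. The same held in C. frutescens stem, and in C. chinense flower the match was 18 of 21 bases. In all, 392 miR393 reads in 5 listings stood under an opposite-strand sequence. This was common in these sheets: of 1175 conserved entries printed with more than 1 sequence, 398 (33.9%) had at least 1 sequence that shared a 12-base run with their most-read one on the opposite strand only. Each listing prints 1 sequence for all its reads, so the lengths and strands of single reads are unknown.

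miR393 was most abundant in the fruit of both species, and by far in C. frutescens fruit, which held 97.2% of all its reads. It had 8696, 38, 14 and 27 reads in fruit, stem, flower and leaf of C. frutescens. In the same organs of C. chinense it had 96, 42, 10 and 28 reads. Outside C. frutescens fruit 255 reads remained in the other 7 libraries together.

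Listed conserved reads numbered between 246508 (C. frutescens leaf) and 1412110 (C. chinense stem), so levels are given as RPM, the reads per 1000000 of them. In fruit, stem, flower and leaf miR393 stood at 9275, 33.5, 33.9 and 109.5 RPM in C. frutescens. In C. chinense it stood at 156, 29.7, 9.26 and 34.5 RPM. As shares these are 0.927% (interval 0.908 to 0.947) in C. frutescens fruit and 0.0156% (0.0127 to 0.0191) in C. chinense fruit. By reads miR393 ranked 9 among 1008 families listed in C. frutescens fruit and 23 among 315 in C. chinense fruit.

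miR166, a regulator of HD-ZIP III genes, took between 42.5% and 93.9% of the listed reads, and its share moves every other share. Without miR166 in the total, miR393 made up 2.35%, 0.0143%, 0.00590% and 0.0330% in fruit, stem, flower and leaf of C. frutescens. In C. chinense it made up 0.166%, 0.0274%, 0.0151% and 0.00949%. Fruit was the highest organ of each species with either total, and C. chinense flower, lowest with miR166, was above C. frutescens stem and flower and C. chinense leaf without it.

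Neighbours in the order of levels, with miR166 in the total, were compared by their counting intervals. C. frutescens fruit was 59.3-fold above C. chinense fruit (48.5 to 73.3). C. chinense fruit was 1.43-fold above C. frutescens leaf, with an interval of 0.924 to 2.28 that includes 1. C. frutescens leaf stood 3.18-fold (1.80 to 5.59) above C. chinense leaf. C. chinense leaf, C. frutescens flower, C. frutescens stem and C. chinense stem followed. Between neighbours among these libraries every interval includes 1, so that these neighbours were not told apart at this depth. C. chinense stem was 3.21-fold (1.59 to 7.18) above C. chinense flower.

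**Figure D1:**
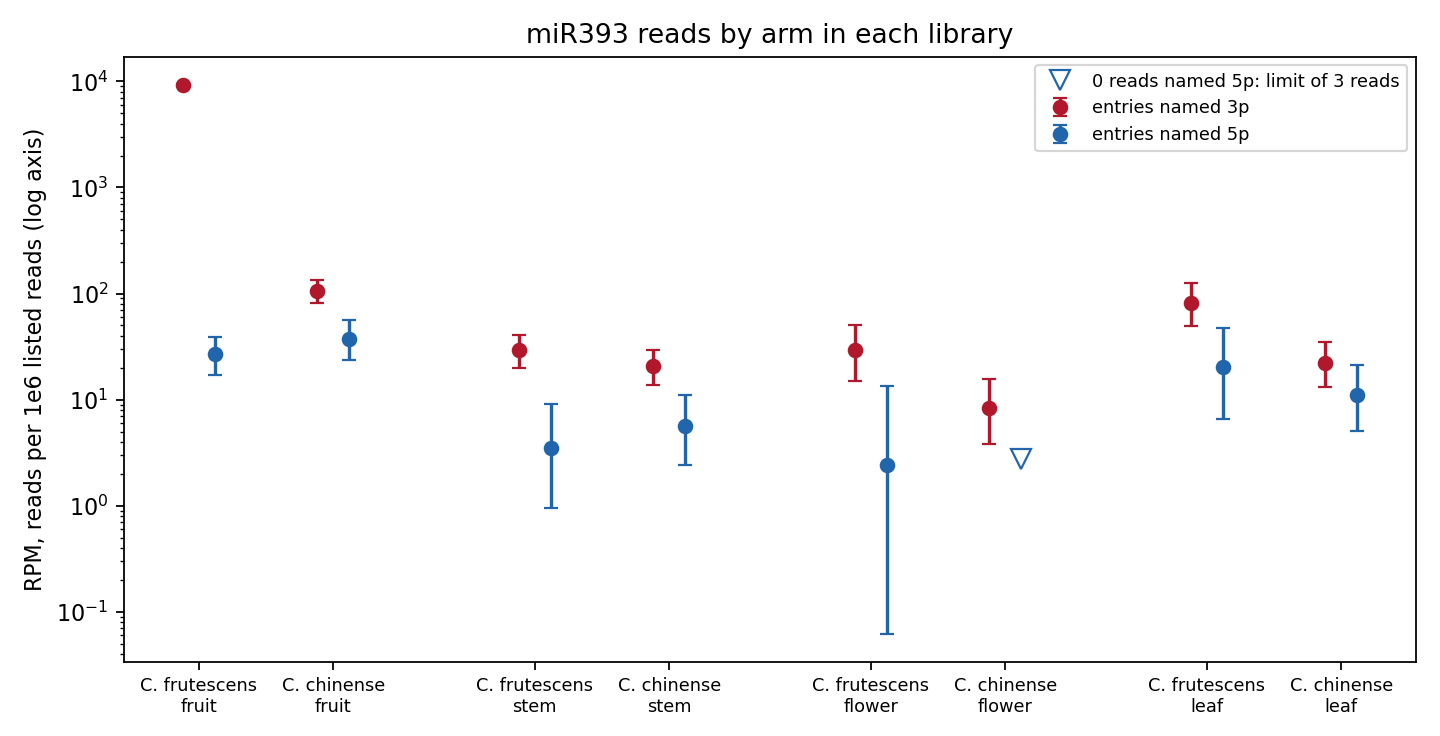
miR393 RPM (log axis) of entries named 3p and 5p in the 8 libraries, with 95% counting intervals. The 3p point of C. frutescens fruit at 9238 stands above the 3p points of the other libraries, at 8.34 to 106, while the 5p points of the 2 fruit libraries lie at 26.7 and 37.5, and the open triangle marks the limit of 3 reads where no 5p read was listed. Of the 8661 reads behind the 3p point of C. frutescens fruit, 8277 stand under the 25 nt listing.

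The split by arm places the excess of C. frutescens fruit in the 3p entries, where 8277 of 8661 reads stood under 1 listing printed with 25 nt. Among printed lengths of 20 to 24 nt the 3p entries showed no such excess, at 0.814-fold of C. chinense fruit. Entries named 3p had 8661, 33, 12 and 20 reads in fruit, stem, flower and leaf of C. frutescens. In C. chinense they had 65, 29, 9 and 18 reads. Entries named 5p, the strand known to act on auxin receptors, had 25, 4, 1 and 5 reads in C. frutescens and 23, 8, 0 and 9 reads in C. chinense. For the 0 reads in C. chinense flower, a limit of 3 reads corresponds to 2.78 RPM.

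The 5p entries stood at 26.7 RPM in C. frutescens fruit and at 37.5 RPM in C. chinense fruit. These fruit values are the 2 highest of the 8 libraries, the next being C. frutescens leaf at 20.3. For the 3p entries the fruit values were 9238 in C. frutescens and 106 in C. chinense. Entries that name no arm had 10 and 8 reads in C. frutescens and C. chinense fruit, and 1 to 5 in each other library.

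Within a library the 3p to 5p ratio does not depend on the total. It was 346 (235 to 536) in C. frutescens fruit and 2.83 (1.73 to 4.77) in C. chinense fruit, a 123-fold difference (62.6 to 237). The ratio of C. frutescens fruit and the 123-fold difference rest on the 25 nt listing. Among printed lengths of 20 to 24 nt the fruit ratios were 15.4 (384 to 25 reads) and 2.83 (65 to 23), a 5.44-fold difference. Of these 384 3p reads in C. frutescens fruit, 383 stood under opposite-strand sequences, against 0 of the 65 in C. chinense fruit. The 1 remaining 3p read of C. frutescens fruit at these lengths stood under zma-miR393c-3p. In stem the 3p to 5p ratio was 8.25 in C. frutescens and 3.63 in C. chinense, and in leaf 4.00 and 2.00. The intervals of the difference, 0.535 to 11.3 in stem and 0.484 to 8.99 in leaf, include 1. In flower 12 reads in C. frutescens and 9 in C. chinense were 3p, against 1 and 0 that were 5p. The 3p entries thus had more reads than the 5p entries in all 8 libraries, with from 66.7% of the arm-named reads in C. chinense leaf to 99.7% in C. frutescens fruit and, from 9 reads, 100% in C. chinense flower.

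Taking the arm from the printed sequence, matched on either strand, in place of the name changed few listings. This matching kept the 383 opposite-strand reads of C. frutescens fruit as 3p. The reverse complement of the potato-named form has 14 of 21 bases identical to the 5p form, so the matching cannot settle the arm of these reads. The maize-named 3p entry zma-miR393c-3p held 1 read in C. chinense fruit under a sequence nearest to the 5p form. The apple-named mdm-miR393e, with 3 reads in C. frutescens fruit and no arm in its name, was nearest to the 3p form. The other entries with no arm, ghr-miR393 (cotton, 21 reads in all), gma-miR393i (4 reads) and ppe-miR393a (peach, 1 read on the opposite strand), were nearest to the 5p form. By sequence the fruit libraries held 8664 and 32 reads of 3p and 5p in C. frutescens, and 64 and 32 in C. chinense.

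**Figure D2:**
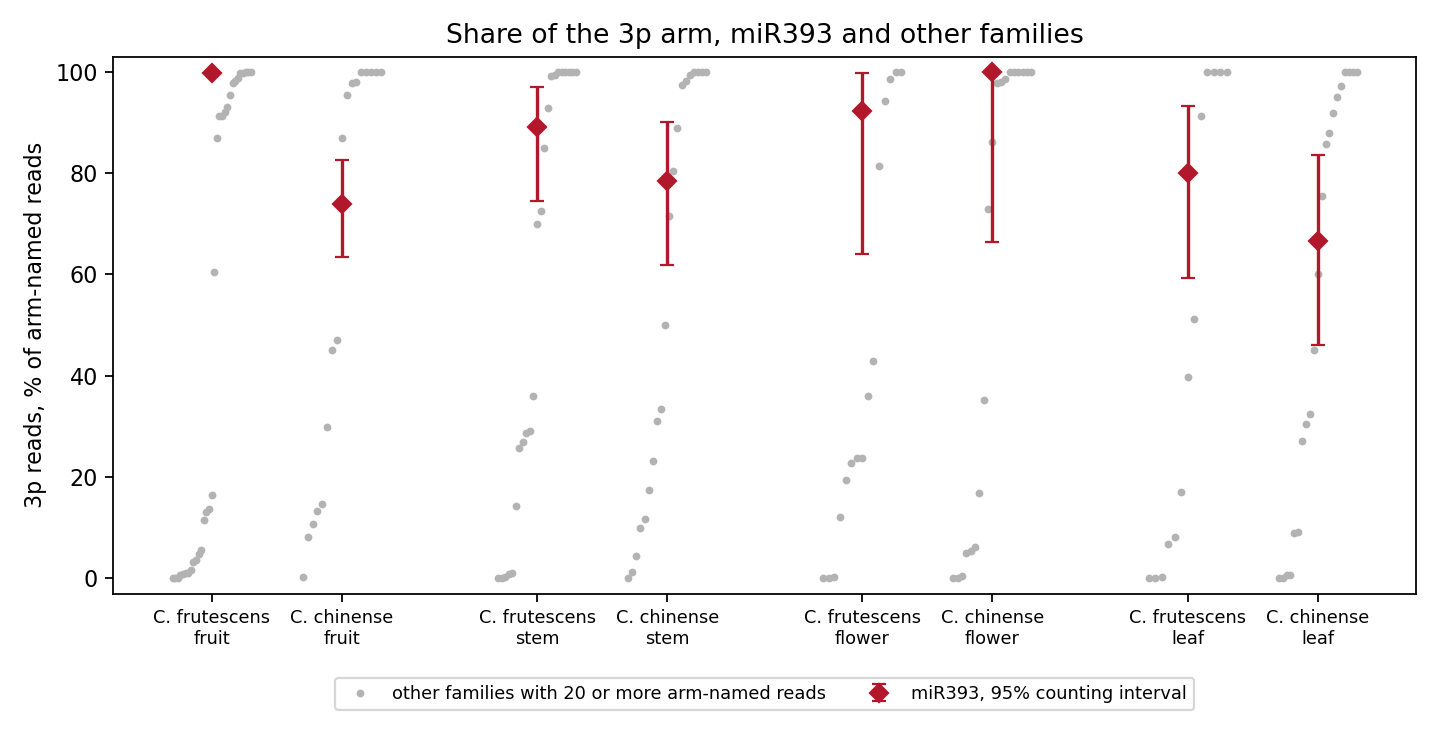
Share of 3p reads among arm-named reads (%) for miR393 (diamonds, 95% counting intervals) and for other families listed with both arms in the series and with at least 20 arm-named reads in the library (grey points). miR393 lies at 99.7% in C. frutescens fruit and between 66.7% and 100% elsewhere, among families that spread from near 0% to 100%.

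Among arm-named reads, a 3p share of this size was frequent over the families measured. In C. frutescens fruit 14 of 32 families had at least 90% 3p reads (43.8%), miR393 counted among them, and 5 lay above miR393. These are families listed with both arms somewhere in the series, and in this library miR396 and miR167 had 0 reads named 5p. In C. chinense fruit 8 of 18 had at least 90% (44.4%), miR393 at 73.9% not among them. Of the families with the most arm-named reads in C. frutescens fruit, miR162 had 60.4% 3p reads, miR396 100%, miR482 3.61% and miR166 1.66%. These percentages leave out entries that name no arm, so they do not give the arm balance of all reads of a family. In this library miR166 had 169 and 10003 reads named 3p and 5p out of 567475, and miR396 14497 and 0 out of 44636. For miR393 8686 of 8696 reads named an arm. Of 17 families measured in both fruit libraries, 4 had a higher 3p share in C. frutescens than in C. chinense and 12 a lower one, with a median difference of -5.66 percentage points. miR393, at 25.8 points, had the second highest difference after miR164, at 78.8 points.

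Most 3p reads carried the soybean-named entry. It had 8277, 30, 12 and 17 reads in fruit, stem, flower and leaf of C. frutescens, and 59, 28, 4 and 12 in C. chinense. The potato-named entry had 382, 3, 0 and 3 reads in C. frutescens, and 5, 1, 5 and 6 in C. chinense. Both were highest in C. frutescens fruit, with 8828 and 407 RPM there, against 96.2 and 8.15 in C. chinense fruit. The 382 potato-named reads of C. frutescens fruit stood under the opposite-strand sequence of 24 nt, and the 5 of C. chinense fruit under the 21 nt form. The soybean-named reads outnumbered the potato-named ones 21.7 to 1 in C. frutescens fruit and 11.8 to 1 in C. chinense fruit, and in C. chinense flower the potato-named entry had more. The last 3p name, ath-miR393b-3p, had 1 read, in C. frutescens fruit, and zma-miR393c-3p had 1 read in each fruit library.

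The 5p names also differed between the fruit libraries. In C. frutescens fruit all 25 reads stood under ath-miR393a-5p and none under ata-miR393-5p. In C. chinense fruit 5 reads stood under ath-miR393a-5p and 18 under ata-miR393-5p. The ata name was listed in 6 libraries, with 1 to 18 reads, and the ath name in 4.

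**Figure D3:**
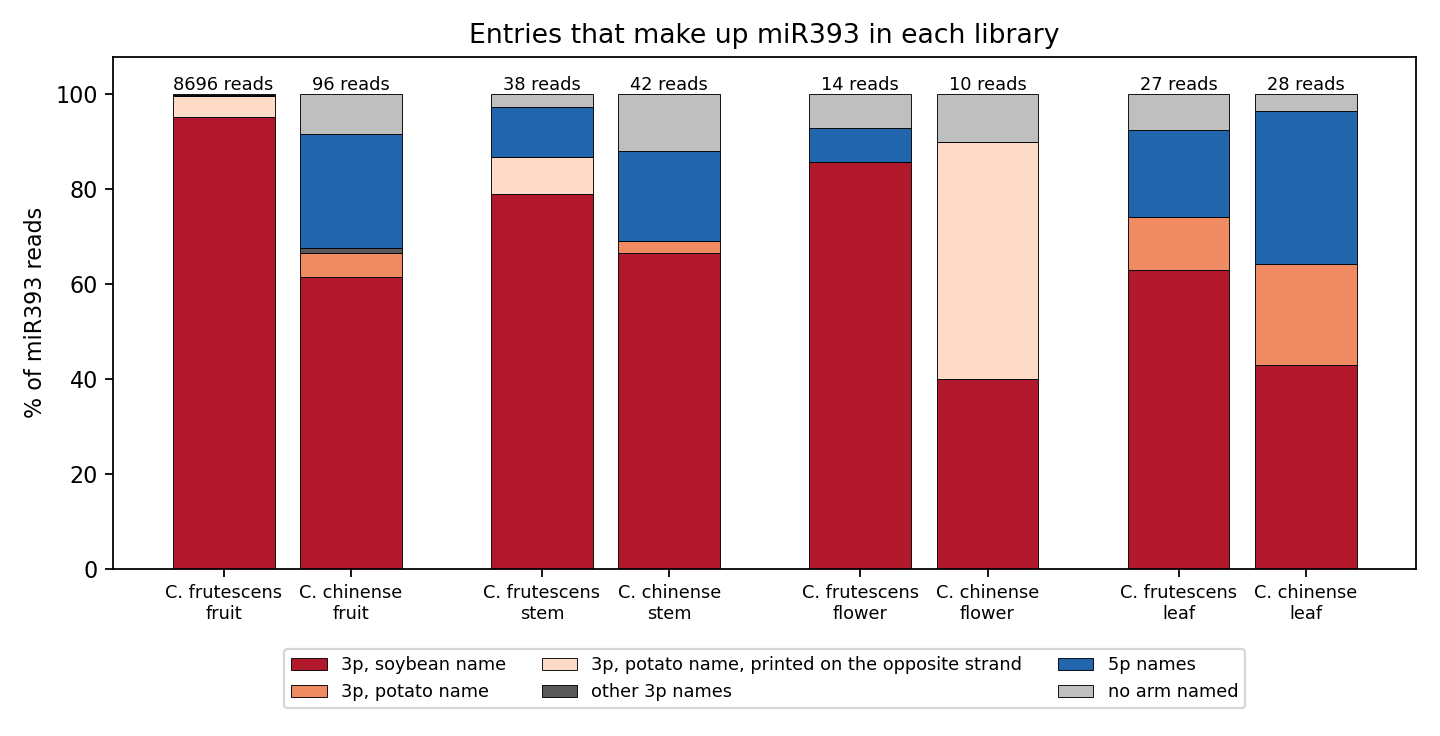
Percent of miR393 reads held by each group of entries in the 8 libraries, with the number of miR393 reads above each bar. The soybean-named 3p entry fills 95.2% of the bar of C. frutescens fruit and 61.5% of that of C. chinense fruit, and the palest segment marks potato-named reads printed on the opposite strand.

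Printed length differed between the fruit libraries. In C. frutescens fruit 95.2% of miR393 reads stood under a sequence over 24 nt, all of them the 25 nt soybean-named form. In C. chinense fruit all printed miR393 sequences had 21 to 23 nt. Sequences over 24 nt also held 5 of the 10 miR393 reads of C. chinense flower, printed with 29 nt, and 1 of the 42 of C. chinense stem, printed with 32 nt, and none in the other 5 libraries. Over all conserved reads 85.9% in C. frutescens fruit and 97.0% in C. chinense fruit stood under sequences over 24 nt. When entries outside 20 to 24 nt were left out of miR393 and of the total, 419 and 96 miR393 reads remained in C. frutescens and C. chinense fruit, and the fruit ratio of C. frutescens over C. chinense was 0.601. Of the miR393 reads this leaves out 1 listing, the 25 nt form, while the totals became 131769 in C. frutescens fruit and 18149 in C. chinense fruit. Of the 419 reads kept in C. frutescens fruit, 383 stood under opposite-strand sequences.

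No other row of the sheets held these sequences. Among 5877 other conserved and 3386 predicted sequences, 0 shared a run of 16 bases with a miR393 sequence on either strand.

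Between species, C. frutescens over C. chinense, the share of miR393 was 59.3-fold in fruit, 1.13-fold (0.708 to 1.79) in stem, 3.66-fold (1.51 to 9.21) in flower and 3.18-fold in leaf. In fruit, 43 of 73 families with at least 20 reads were 4-fold or more higher in C. frutescens (58.9%) and 7 were 4-fold or more lower (9.59%), and miR393 ranked 10 from the highest. The fruit ratio was 38.4-fold with edgeR TMM totals and 32.9-fold with DESeq2 size factors, and 0.601-fold among printed lengths of 20 to 24 nt. Without miR166 in the total it was 14.1-fold (11.6 to 17.4), and 25 of 72 families (34.7%) were 4-fold or more higher. In stem, flower and leaf miR393 was under 4-fold, where 20 of 62 families (32.3%), 20 of 56 (35.7%) and 3 of 55 (5.45%) were 4-fold or more higher. In flower the direction turned without miR166, to 0.391-fold, and the ratio was 1.82-fold with edgeR TMM totals and 1.90-fold with DESeq2 size factors. In stem the ratio lay below 1 under every other scaling, at 0.522-fold without miR166, 0.947-fold with edgeR TMM totals and 0.677-fold with DESeq2 size factors, and at 0.752-fold among printed lengths of 20 to 24 nt. In leaf it was 3.48-fold, 1.99-fold and 1.73-fold under these scalings, and it turned to 0.537-fold among printed lengths of 20 to 24 nt, where both leaf libraries kept all their miR393 reads (27 and 28) and the totals became 37159 in C. frutescens and 20682 in C. chinense.

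For the arms in fruit, the 3p ratio was 87.2-fold (68.3 to 113), or 0.814-fold among printed lengths of 20 to 24 nt, and the 5p ratio 0.711-fold, with an interval of 0.387 to 1.31, and below 1 under the 3 other scalings as well (log2 ratios of -2.56, -1.12 and -1.34 without miR166, with TMM and with DESeq2 factors). With families split by arm, 60 of 102 were 4-fold or more higher in C. frutescens fruit (58.8%). The median log2 ratio of all families in fruit was 2.42 with listed totals, 0.35 without miR166, 1.80 with edgeR TMM totals and 1.57 with DESeq2 size factors. Relative to that median, miR393 stood at 3.46, its 3p entries at 4.01 and its 5p entries at -2.92 on the log2 scale (reads plus 0.5), the same under all 4 scalings since each divides whole libraries. In stem, flower and leaf miR393 stood at -1.03, 0.76 and 1.49 relative to the median of its organ.

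Names that are often fragments of rRNA or tRNA, 7 in all and summed, took 9.03% of listed reads in C. frutescens fruit and 1.34% in C. chinense fruit, and 0.426% to 15.6% in the other libraries. Their part in the miR393 values was not tested. In pooled organs, fewer cells of a type and less RNA per cell cannot be told apart.

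**Figure D4:**
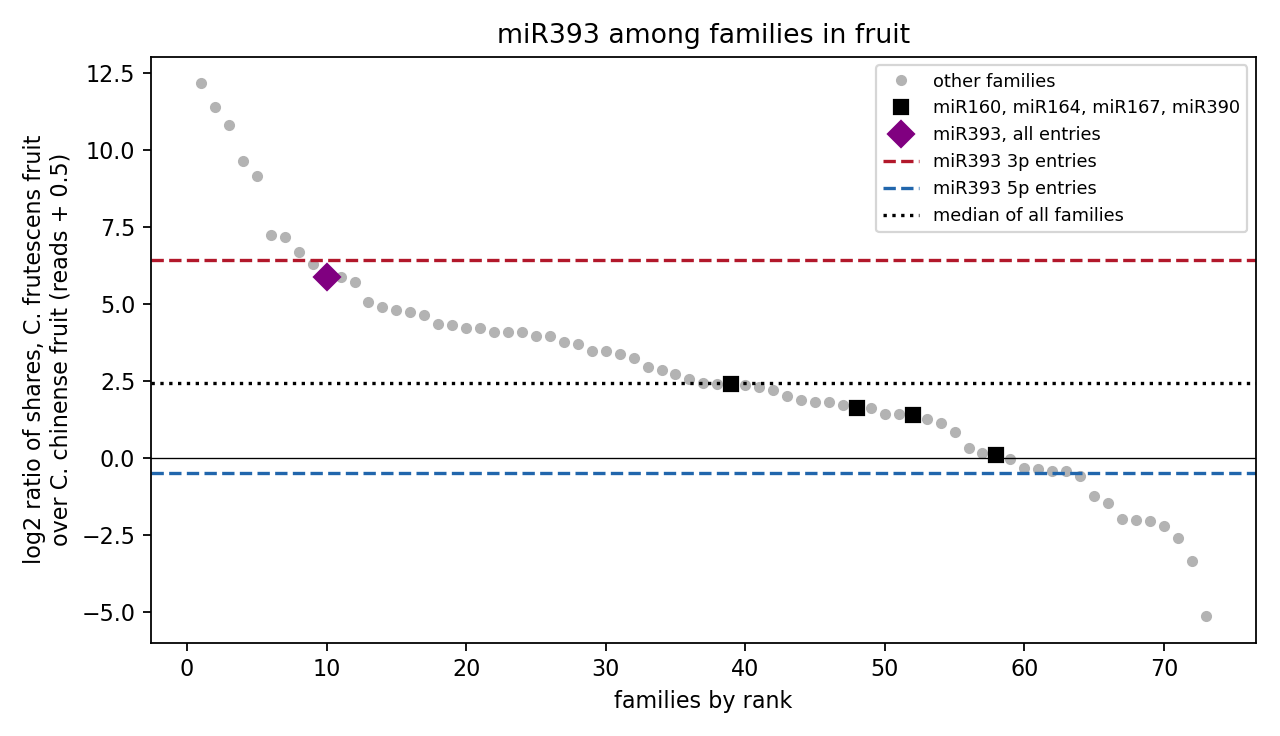
Log2 ratio of shares, C. frutescens fruit over C. chinense fruit (reads plus 0.5), for 73 families in order of rank. miR393 (diamond, 5.88) lies above the dotted median of 2.42, the dashed lines mark its 3p entries at 6.44 and its 5p entries at -0.49, and squares mark the other auxin families.

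Fruit over the mean of stem, flower and leaf, miR393 was 157-fold higher in C. frutescens, with 9275 against 59.0 RPM. This ratio was 2.64-fold among printed lengths of 20 to 24 nt, where the 25 nt listing is left out and the totals shrink, and 275-fold with leaf left out of the mean. In C. chinense it was 6.39-fold higher, with 156 against 24.5 RPM, 3.74-fold at those lengths and 9.60-fold without miR166 in the total. In C. frutescens 32 of 89 families (36.0%) were 4-fold or more higher in fruit and 15 (16.9%) lower. In C. chinense 4 of 72 (5.56%) were higher and 15 (20.8%) lower. miR393 ranked 4 from the highest in each species. For the 3p entries the fruit ratio was 199-fold in C. frutescens and 6.23-fold in C. chinense, or 2.88-fold and 3.66-fold among printed lengths of 20 to 24 nt. For the 5p entries it was 3.05-fold in C. frutescens and 6.71-fold in C. chinense. Without miR166 in the total the 5p ratios were 2.52-fold and 14.5-fold.

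The other auxin-linked families listed had smaller fruit ratios than miR393 as a whole, at 59.3-fold between the species, but not than its 5p entries. The 59.3-fold rests on the 25 nt listing and was 0.601-fold among printed lengths of 20 to 24 nt. The 5p entries of miR393 were at 0.711-fold (0.387 to 1.31). The other families were miR160 and miR167, which target auxin response factors, and miR390, which starts tasiRNAs against such factors. The last was miR164, which targets NAC genes of auxin-dependent organ growth. In fruit, C. frutescens over C. chinense, miR164 was 5.33-fold (904 and 111 reads), miR390 3.07-fold (778 and 166), miR167 2.64-fold (282 and 70) and miR160 1.08-fold (1103 and 671). Thus 1 of 4 was 4-fold or more higher and 0 lower, where of all 73 families 43 (58.9%) were higher and 7 (9.59%) lower. Their median log2 ratio was 1.50 where all families had 2.42. Fruit over the other organs, their median log2 ratio was 0.84 in C. frutescens, where all families had 0.61, and -0.05 in C. chinense, where all families had -0.41.

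The families whose levels ran most like those of miR393 were found by the root mean square difference of centred log2 shares over the 8 libraries, among 70 families with at least 50 reads and listed in at least 6 libraries. miR827, a phosphate-responsive family, was nearest at 0.55, where the median family stood at 2.68. It had 597 reads in C. frutescens fruit and 1 to 7 in each other library. miR8019 followed at 0.97, miR170, a regulator of GRAS genes, at 1.33, miR7758 at 1.49 and miR1446 at 1.52. miR8019 had 552 and 3 reads in C. frutescens and C. chinense fruit, and miR170 had 3474 and 75. Without C. frutescens fruit 4 of these 5 fell under the minimum of reads, and miR170 ranked 7.

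**Figure D5:**
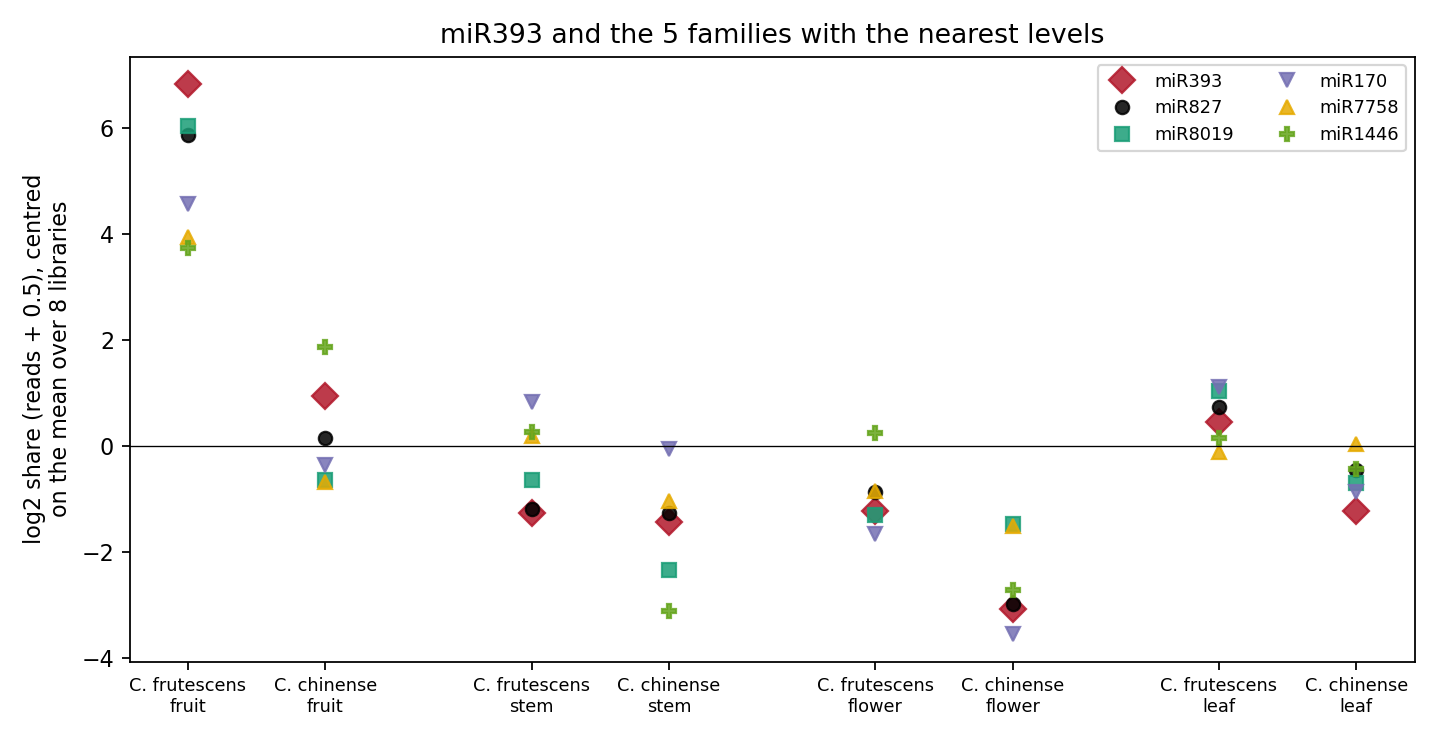
Log2 share (reads plus 0.5) centred on the mean over 8 libraries for miR393 and the 5 families nearest to it. All 6 have their highest value in C. frutescens fruit, where miR393 stands at 6.83 and miR827 at 5.86.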

How the data were processed

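Per the labels' protocols, pooled RNA (NucleoSpin kit) was made into TruSeq small RNA libraries and sequenced on a Genome Analyser II. The authors deposited, per the file headers, read counts per miRNA entry for each of 8 libraries, unnormalized, in 8 sheets of conserved entries and 8 of predicted miRNAs. For trimming, aligner, database release and mismatches the sources used here give nothing. An entry not listed counted as 0 reads, and 1 line each was empty in the conserved sheets of C. chinense stem and leaf. Sequenced reads per library are unknown, so shares refer to listed conserved reads, and depth is their total.

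Reads were summed by full miR number, by arm ending and by entry in Python 3.11.15 (pandas 2.3.3, numpy 2.4.6). Exact intervals (shares: Clopper-Pearson; ratios: conditional binomial; ratio of arm ratios: conditional odds ratio) came from scipy 1.17.1 and were tested on simulated counts. Reads carry no molecular identifiers. TMM totals came from edgeR 4.0.16, size factors from DESeq2 1.42.0 in R 4.3.3, and plots from matplotlib 3.10.9. With 1 library per group no difference between groups was tested, and Dixon's limit was used across organs only to mark values for a closer look. Ratio backgrounds used families with at least 20 reads over the libraries compared and 4-fold as the limit. Sequences were assigned to the nearest of 3 forms (gma and stu 3p, ath 5p, each as most often printed) by identical bases without gaps, on both strands. Named were all miR393 entries, 5 nearest families, the families with most arm-named reads in C. frutescens fruit, 4 auxin families and 7 fragment entries (miR894, miR2916, miR5077, miR5139, miR6300, miR6478 and miR8175). Members and lists were chosen with earlier results of these data known.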

Additional observations from a re-analysis of the deposited data

Results flagged for a closer look

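Over the 4 organs of C. frutescens, fruit lay far from the others for miR393 as a whole, at 9275 RPM, and for its 3p entries, at 9238. Over the 4 organs of C. chinense, fruit lay far from the others for the 3p entries, at 106 RPM, and not for the family as a whole. The gap to the next organ divided by the range exceeded the 95% critical value of Dixon's test in each case. Organs are not replicates of each other, the family was chosen for this pattern, and chance alone passes this limit in about 1 of 20 groups.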

How the results depend on the processing

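The share of miR393 in C. frutescens and C. chinense fruit was 2.35% and 0.166% without miR166, 3.05% and 0.194% also without fragment entries, and 0.318% and 0.529% among printed lengths of 20 to 24 nt. In C. frutescens fruit the last setting leaves out the 25 nt entry of 8277 reads and no other miR393 read, while all totals shrink. The 3p share there was then 93.9% and the 3p to 5p ratio 15.4, which is 5.44-fold that of C. chinense fruit. Of the 384 3p reads kept there, 383 stood under opposite-strand sequences, so these values rest on them. Leaving opposite-strand sequences out was not combined with the length limit. The species ratio in fruit, C. frutescens over C. chinense, reversed to 0.601-fold, and to 0.814-fold for the 3p entries. Fruit over other organs in C. frutescens was 2.64-fold, and 2.88-fold for the 3p entries. In C. chinense it was 3.74-fold and 3.66-fold, where fruit kept all 96 reads while flower kept 5 of 10 and stem 41 of 42. The species ratio in leaf reversed to 0.537-fold through the totals alone, since both leaf libraries kept every miR393 read. The species ratio without miR166 was 14.1-fold in fruit, 0.522-fold in stem and, reversed, 0.391-fold in flower. It was 38.4-fold in fruit with TMM totals, and with DESeq2 size factors 32.9-fold in fruit, 0.677-fold in stem and 1.73-fold in leaf. The cause of these scaling shifts was not tested. Fruit over other organs in C. frutescens and C. chinense was 132-fold and 9.60-fold without miR166, 127-fold and 4.70-fold with TMM totals, and 125-fold and 4.53-fold with DESeq2 size factors. In C. frutescens it was 129-fold without stem, 129.7-fold without flower and 275-fold without leaf, and in C. chinense 4.87-fold without flower and 8.02-fold without leaf. Without C. frutescens fruit 0 of the 5 nearest families remained, while dropping miR166 from the total kept all 5. No other alternative took one of these ratios, or a share or 3p percentage of the fruit libraries, out of its counting interval, among them entries of at least 2 reads and arms taken from the sequence on either strand. For fruit over other organs that interval carries the counting error of the fruit share only. The counting error of the other organs is left out, so leaving the interval does not mean leaving the counting error of the ratio. For single-library values not listed here, 19 alternatives left the interval and 35 did not. Arms by sequence, opposite-strand sequences left out and, for ratios, the length limit were chosen after seeing the data. Distinct sequences as the unit gave the same reads. Outside C. frutescens fruit the 5p entries had 0 to 23 reads a library, which limits every 5p comparison. No paired analysis was possible because each species and organ has 1 library without a replicate number.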
